A study of Mus musculus with 10 samples.

Results

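The genes described here are 9 members of the YAP-TEAD pathway, taken by symbol from the 26888 genes of an RNA-seq table of mouse OP9 cells: the kinase gene Lats2, the scaffold gene Amotl2, the coactivator genes Yap1 and Wwtr1, the transcription factor gene Tead1, and the target genes Cyr61 (now Ccn1), Ctgf (now Ccn2), Ankrd1 and Axl. OP9 is a stromal cell line from the calvaria of (C57BL/6xC3H)F2-op/op mice, used as a feeder layer because it supports blood cell development in culture. Libraries were made from 6 reaggregates and 4 flat cultures, to compare the culture form that supports maturation of blood stem cells with ordinary growth on plastic. For a reaggregate, OP9 cells were detached, packed into a pellet and kept on a filter above the medium for 48 h. Before RNA was taken, the published methods say, reaggregates were dispersed with enzymes, a step not described for flat cultures, so its effect and that of culture form cannot be told apart either. Reaggregates 2, 4 and 6 received IL-3, labelled as 200 μg/μl, and reaggregates 1, 3 and 5 did not. Flat cultures 2 and 4 are labelled as de Bruijn lab cells, whereas flat cultures 1 and 3 have no laboratory in their labels. The published methods name the Medvinsky and de Bruijn groups as earlier keepers of the flat-cultured cells, and no source used here gives the origin of the reaggregated cells, so culture form and cell source cannot be told apart in full.

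Levels are in RPM, the reads on a gene scaled to the same total of reads on genes in every library. Depth, judged from the RPM worth of 1 read, was 7.35M to 9.43M reads on genes per library. At that depth 3 reads, used here as the lowest amount that can be told from 0 by counting error alone, were worth between 0.318 and 0.408 RPM. All 9 members were present in the table, and all passed the filter of more than 0.5 RPM in at least 1 library that left 16933 genes for testing. A gene is called when its adjusted p in limma is at most 0.05 and its fold change is at least 2 on the scale of log2(RPM + 0.5), which understates the change of genes at low levels. The labels do not say that the libraries of a group came from separate cultures, so each p-value measures the spread between these samples, which may be technical.

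The Hippo pathway is a kinase cascade that restrains growth. LATS1 and LATS2 phosphorylate the coactivators YAP and TAZ (the product of Wwtr1) and keep them out of the nucleus, and angiomotin proteins such as AMOTL2 hold them at cell junctions and actin filaments. Unphosphorylated YAP and TAZ bind TEAD factors on DNA and switch on targets such as Cyr61, Ctgf, Ankrd1 and Axl, along with Lats2 and Amotl2, whose products feed back on the pathway. In adherent cells, spreading on a stiff surface is known to favour nuclear YAP, and crowding or rounding its retention in the cytoplasm. Because much of this control acts on proteins, RNA levels of YAP1, TAZ and the kinases say little about activity, and target RNA is the usual readout.

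Among the 9 members, 3 met the rule for lower in reaggregates (Cyr61, Amotl2 and Ankrd1) and 0 that for higher, where 6.53% of all genes tested were called lower and 7.32% higher. The share called higher, 1239 genes, became 2121 genes without flat culture 3 and 766 without flat culture 4. Ankrd1 passed the filter only through the libraries in which it was high, so its test depends on the outcome and its call is given no weight. By adjusted p alone, 1 member was higher (Wwtr1) and the same 3 were lower, beside 13.6% and 15.7% of all genes. Reaggregates and flat cultures did not overlap for 3 members (Cyr61, Amotl2 and Wwtr1), beside 19.1% of all genes. These shares of all genes are also the background for the gene lists below in the same comparison. The median log2 difference of the members, Ankrd1 among them, was -0.31 and that of all genes tested 0.04. Without Ankrd1 the median of the members lies between the values of Yap1 (-0.31) and Ctgf (-0.06). Of the targets, Cyr61 and Amotl2 fell, and Ctgf, Lats2 and Axl did not pass the test. Differences between targets were not tested. With consecutive reaggregates averaged, Amotl2 was called (limma adjusted p = 0.0363). Cyr61 was then not called (limma adjusted p = 0.0696, log2 difference -1.51). In bulk samples like these, fewer cells of a type and less RNA per cell cannot be told apart.

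**Figure D1:**
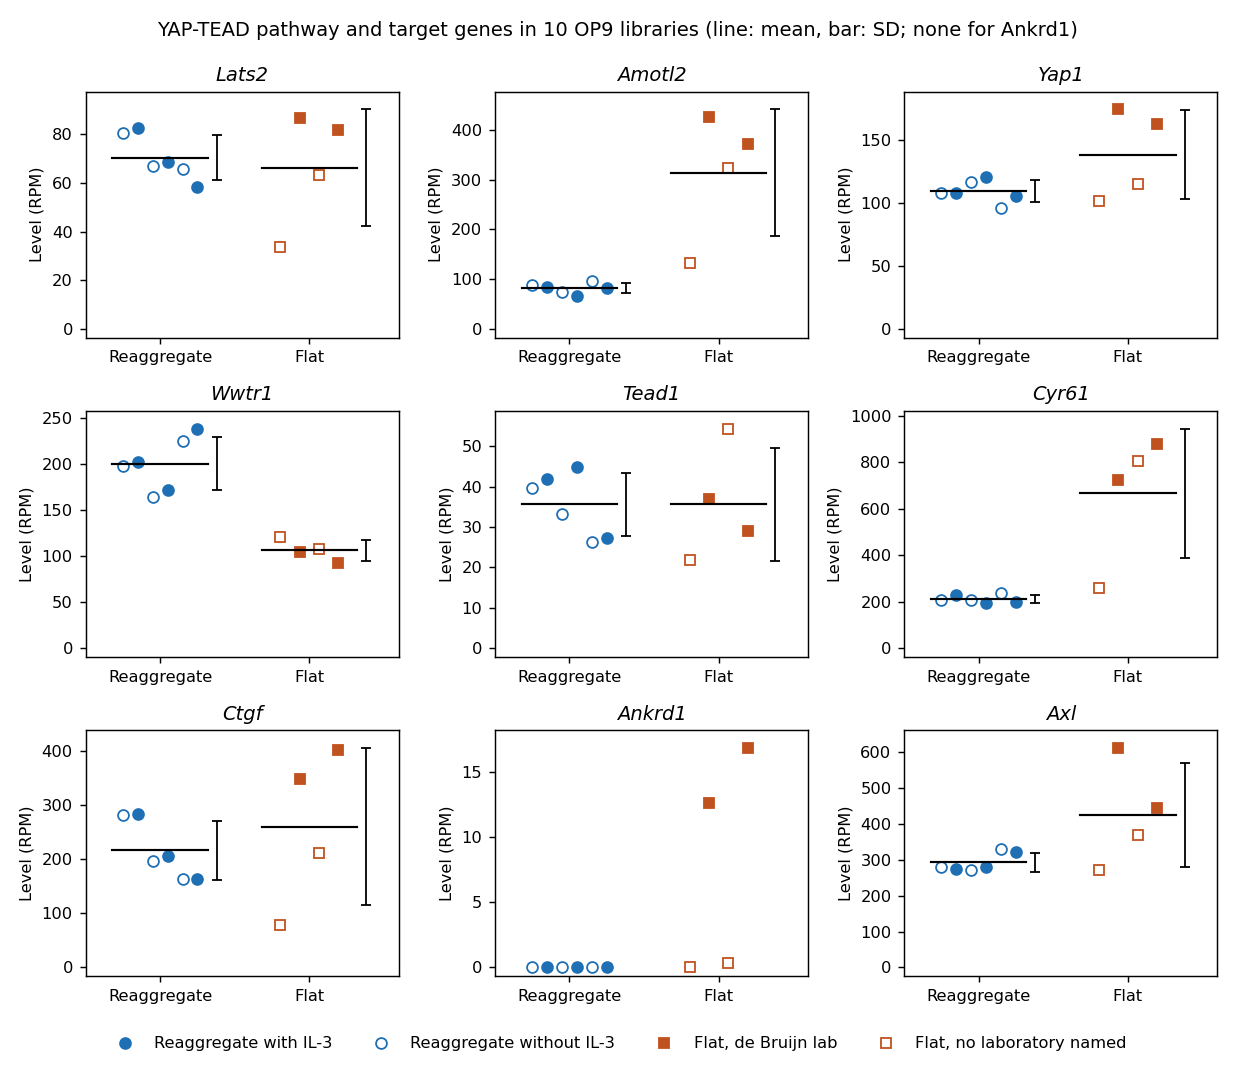
Level in RPM (vertical axis, linear, a separate scale for each gene) of the 9 members in 6 reaggregates (circles, filled with IL-3) and 4 flat cultures (squares, filled for de Bruijn lab); lines are means and bars SDs, left out for Ankrd1, and points run by replicate number. All reaggregate points lie below all flat points for Cyr61 and Amotl2, and above them for Wwtr1. The flat cultures spread more widely than the reaggregates for 8 of the 9 genes, and the share of all genes that do so is not given.

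Lats2, one of the kinases that inactivate YAP and TAZ and also a YAP target, lies on chromosome 14 from 58260914 to 58377225, minus strand (NCBIM37, as all gene coordinates here; identifier ENSMUSG00000021959). Its levels in reaggregates ran from 58.3 to 82.4 RPM with a median of 67.8, and in flat cultures 1 to 4 they were 33.7, 86.6, 63.2 and 81.9 RPM. Flat culture 1 was low and the others lay in or near the range of the reaggregates, so the groups overlap. The log2 difference was 0.16 ± 0.24 (SE), with a 95% interval of -0.36 to 0.69 and an adjusted p of 0.621 in limma. Its paralog Lats1 was at 45.2 ± 7.13 RPM (n = 6, SD) in reaggregates and 38.1 ± 2.15 RPM (n = 4, SD) in flat cultures, with a limma adjusted p of 0.241.

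Amotl2 (ENSMUSG00000032531; chromosome 9, 102619002 to 102635748, plus strand) encodes a junction scaffold that binds and restrains YAP, and it is itself switched on by YAP. Reaggregates 1 to 6 held 88.3, 83.1, 74.4, 66.8, 95.7 and 81.2 RPM, and flat cultures 1 to 4 held 133, 426, 323 and 373 RPM. Every flat culture was above every reaggregate, with flat culture 1 nearest to them. The mean was 81.6 ± 10.2 RPM (n = 6, SD) in reaggregates and 314 ± 128 RPM (n = 4, SD) in flat cultures, a ratio of means of 3.85. On the log2 scale Amotl2 fell by 1.82 ± 0.28 (SE; 95% interval -2.43 to -1.21), with an adjusted p of 0.00115 in limma and an exact permutation p of 0.00476, the smallest that 210 two-sided splits can give.

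The other angiomotin genes did not follow Amotl2. Amot, the founding member of the family, was at 181 to 218 RPM in reaggregates (median 204) and at 62.3, 25.6, 117 and 18.3 RPM in flat cultures 1 to 4. It was high in all reaggregates and lowest in the de Bruijn lab cultures. Amot was called higher with a log2 difference of 2.20 ± 0.41 (SE, limma adjusted p = 0.00336). That call was lost when consecutive reaggregates were averaged and when reaggregates were split by IL-3 (highest limma adjusted p 0.0642). Amotl1 was at 181 ± 28.1 RPM (n = 6, SD) against 122 ± 36.8 RPM (n = 4, SD), an overlapping difference of 0.60 on the log2 scale that is too small to be called (limma adjusted p = 0.0426). Across 24 upstream genes of the pathway (kinases, adaptors, regulators), 2 were called higher, 1 was called lower (Amotl2) and 21 were not called. Over all genes 7.32% were called higher and 6.53% lower. The median of the list was 0.25, beside 0.04 over all genes. Of the 2 called higher, Dchs1, a large cadherin that signals to the pathway, was chosen for mention after its values were seen and stayed at or below 2.26 RPM everywhere; the other was Amot. Dchs1 passed the filter only through reaggregates, where it was high, so its call is given no weight.

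Yap1 (ENSMUSG00000053110; chromosome 9, 7931999 to 8004596, minus strand) encodes the coactivator YAP. Its levels in reaggregates ran from 95.4 to 120 RPM (median 108), and in flat cultures 1 to 4 they were 101, 174, 115 and 162 RPM. The de Bruijn lab cultures were above all reaggregates, the other flat cultures were within their range, and the groups overlap. The log2 difference was -0.31 ± 0.17 (SE; 95% interval -0.67 to 0.05), with an adjusted p of 0.17 in limma.

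Wwtr1 (ENSMUSG00000027803; chromosome 3, 57259571 to 57379832, minus strand), which encodes TAZ, went the other way. It was at 198, 202, 164, 171, 225 and 238 RPM in reaggregates 1 to 6 and at 120, 104, 108 and 91.9 RPM in flat cultures 1 to 4. All reaggregates were above all flat cultures, and the flat cultures lay close together whatever their source. The means were 200 ± 29.0 RPM (n = 6, SD) and 106 ± 11.6 RPM (n = 4, SD), a ratio of 1.88. Wwtr1 was higher in reaggregates by 0.90 ± 0.14 (SE; 95% interval 0.59 to 1.22) on the log2 scale, with an adjusted p of 0.00138 in limma and an exact permutation p of 0.00476, but it stayed under the 2-fold minimum and so was not called.

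Tead1 (ENSMUSG00000055320; chromosome 7, 119822832 to 120050319, plus strand) encodes a DNA-binding partner of YAP and TAZ. Reaggregates ran from 26.3 to 44.9 RPM (median 36.5), and flat cultures 1 to 4 were at 21.9, 37, 54.4 and 29 RPM. The flat cultures spanned the whole range of the reaggregates, with flat culture 1 lowest and flat culture 3 highest. The log2 difference was 0.05 ± 0.25 (SE; 95% interval -0.50 to 0.60), with a limma adjusted p of 0.89.

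The other TEAD genes and the TEAD inhibitor Vgll4 filled in the picture of binding partners. Tead2 was at 64.4 to 101 RPM in reaggregates (median 73.1) and at 34.9, 26.2, 55 and 28.5 RPM in flat cultures 1 to 4, without overlap, and was called higher by 1.18 ± 0.22 (SE; limma adjusted p = 0.00339). Vgll4, whose product competes with YAP for TEAD, was at 121 to 151 RPM in reaggregates (median 142) and at 20, 48.7, 36 and 38.1 RPM in flat cultures 1 to 4. That gap of 2.01 ± 0.21 (SE) on the log2 scale was called, with an adjusted p of 0.000148 in limma, and held apart every reaggregate from every flat culture. Tead3 (36.7 ± 12.9 RPM in 6 reaggregates and 23.7 ± 8.95 RPM in 4 flat cultures, SD) and Tead4 (2.58 ± 1.15 and 4.79 ± 0.63 RPM) had limma adjusted p-values of 0.163 and 0.0552. Of the 10 coactivator, TEAD and VGLL genes, 9 were in the table and 7 were tested. Among them 2 were called higher and 0 lower, with a median log2 difference of 0.64 beside 0.04 over all genes. Vgll1 and Vgll2 did not exceed the worth of 3 reads in any library, and Vgll3 was not analysed here. The calls of Amot and Tead2 were lost where consecutive reaggregates were averaged to 3 samples and where only reaggregates with, or only those without, IL-3 were set against the flat cultures (highest adjusted p of 0.0642 for both in limma). Against the flat cultures with no laboratory named, Tead2 was at 0.85, under 2-fold, and so was not called there.

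Levels of different genes can be set side by side only per length of exon. On that scale Wwtr1 stood at 41.8 ± 6.07 RPM per kb of exon in reaggregates (n = 6, SD) and Yap1 at 11.7 ± 0.932, so TAZ transcripts were the more abundant of the 2 coactivators. In flat cultures the values were nearer, 22.2 ± 2.42 RPM per kb for Wwtr1 and 14.9 ± 3.83 for Yap1 (n = 4, SD). Tead2 was the most abundant TEAD gene in reaggregates, with 17.2 ± 3.49 RPM per kb, followed by Tead3 with 8.34 ± 2.93, Tead1 with 3.17 ± 0.693 and Tead4 with 0.719 ± 0.321 (n = 6, SD). The same order was seen in the means of the flat cultures, at 7.74 ± 2.81, 5.39 ± 2.04, 3.17 ± 1.24 and 1.33 ± 0.175 RPM per kb (n = 4, SD). In flat cultures 2 and 4, however, Tead3 was above Tead2 per kb. There Tead3 (4.4 kb of exon) was at 31.1 and 27.9 RPM and Tead2 (4.67 kb) at 26.2 and 28.5 RPM. These differences between genes were not tested. Vgll4 was at 33.4 ± 3.04 RPM per kb in reaggregates, above each TEAD gene, and at 8.59 ± 2.85 in flat cultures.

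**Figure D2:**
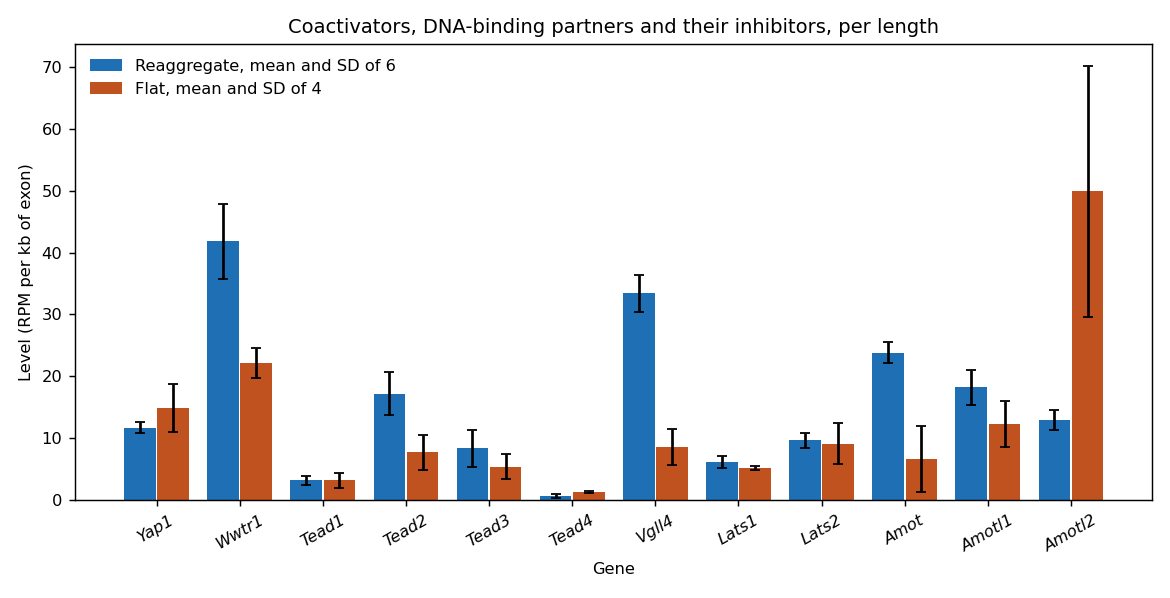
Level in RPM per kb of exon (vertical axis, linear from 0) of the coactivator genes, the TEAD genes, Vgll4, and the LATS and angiomotin genes; blue bars are means of 6 reaggregates, orange bars means of 4 flat cultures, error bars SDs. Wwtr1, Tead2, Vgll4 and Amot stand higher in reaggregates and Amotl2 higher in flat cultures.

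Cyr61 (ENSMUSG00000028195; chromosome 3, 145309935 to 145312949, minus strand) encodes a secreted matricellular protein of the CCN family that signals through integrins, and it is among the most widely used YAP targets. Its levels in reaggregates 1 to 6 were 208, 227, 207, 193, 238 and 197 RPM, and in flat cultures 1 to 4 they were 259, 723, 807 and 877 RPM. Flat culture 1 lay just above the highest reaggregate and the other flat cultures far above it, so the groups do not overlap. The mean of 212 ± 17.5 RPM (n = 6, SD) in reaggregates compares with 666 ± 279 RPM (n = 4, SD) in flat cultures, a ratio of 3.15. Cyr61 fell by 1.51 ± 0.29 (SE; 95% interval -2.15 to -0.87) on the log2 scale, with an adjusted p of 0.00411 in limma and an exact permutation p of 0.00476. The call was lost when consecutive reaggregates were averaged (adjusted p = 0.0696 in limma), when reaggregates without IL-3 (0.0708) or with IL-3 (0.0701) were used alone, and against the flat cultures with no laboratory named (0.0547); over all 23 alternatives adjusted p ran from 5.67e-06 to 0.0708.

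Ctgf (ENSMUSG00000019997; chromosome 10, 24315248 to 24318489, plus strand), the closest relative of Cyr61 in use as a YAP target, showed another pattern. Reaggregates 1 to 6 were at 282, 284, 196, 206, 163 and 164 RPM, and flat cultures 1 to 4 at 78.5, 348, 212 and 402 RPM. The de Bruijn lab cultures were above all reaggregates, flat culture 1 was below all of them and flat culture 3 was among them. With an overlap of this kind the log2 difference was -0.06 ± 0.39 (SE; 95% interval -0.92 to 0.80), and limma gave an adjusted p of 0.911. Antisense to Ctgf, the annotated transcript Gm15270 shares 570 bases of its exons, 22.9% of their length; since no source used here says that strand was used in counting, reads of the 2 genes there cannot be told apart. Lats2 shares 4.55% of its exon bases with Xpo4 on the same strand and Yap1 shares 1.25% with an antisense transcript.

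Among the remaining CCN genes only Wisp1 was called. Wisp1, a secreted protein linked to WNT signalling, was at 258 to 323 RPM in reaggregates (median 302) and at 111, 31, 147 and 20.9 RPM in flat cultures 1 to 4. It was thus lowest in the de Bruijn lab cultures, without overlap between groups, and was called higher by 2.37 ± 0.46 (SE; limma adjusted p = 0.00416), a call lost when reaggregates were averaged or split by IL-3 (highest adjusted p 0.0682). Nov was at 64.8 and 89.1 RPM in flat cultures 1 and 3, at 2.51 and 0.85 RPM in flat cultures 2 and 4, and in reaggregates between 8.82 and 64 RPM, with a limma adjusted p of 0.37 for culture form. Wisp2 was at 408 ± 142 RPM (n = 6, SD) and 278 ± 56.7 RPM (n = 4, SD), with a limma adjusted p of 0.208. Of the 5 CCN genes tested, 1 was called higher, 1 lower and 3 were not called, with a median of 0.49; Wisp3 was not analysed here.

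Ankrd1 (ENSMUSG00000024803; chromosome 19, 36186455 to 36194334, minus strand) encodes an ankyrin repeat protein that responds to mechanical load in muscle and is a direct YAP target in many cell types. It was listed at 0 RPM in all 6 reaggregates and in flat culture 1, at 0.359 RPM in flat culture 3, which is the worth of 3 reads there, and at 12.6 and 16.8 RPM in flat cultures 2 and 4. Expression above the floor was thus seen in the de Bruijn lab cultures and in no other library. No fold change or p is given, since the reaggregates are at 0 and the size of any log2 difference is set by the added 0.5. The related genes Ankrd2 and Ankrd23 were not called, and neither exceeded 6.75 RPM in any library.

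Axl (ENSMUSG00000002602; chromosome 7, 26542292 to 26573724, minus strand) encodes a receptor tyrosine kinase of the TAM family, which binds the ligand GAS6 and takes part in the clearance of dying cells. Reaggregates ran from 272 to 331 RPM (median 279), and flat cultures 1 to 4 were at 270, 611, 370 and 443 RPM. Flat culture 1 was just below the lowest reaggregate and the other flat cultures were above all of them. The log2 difference was -0.47 ± 0.20 (SE, 95% interval -0.91 to -0.04). It had an adjusted p of 0.0922 in limma and an exact permutation p of 0.0381, so it did not pass after adjustment over all genes. Without flat culture 1 it was -0.67 with a limma adjusted p of 0.0185, still under 2-fold. Leaving out flat culture 2, 3 or 4 instead gave -0.28, -0.52 and -0.43 (limma adjusted p = 0.251, 0.0787 and 0.2). Its paralogs Tyro3 (34.1 ± 6.21 RPM in reaggregates and 22.1 ± 12.4 in flat cultures, SD) and Mertk (17.3 ± 7.21 and 12.0 ± 4.89 RPM) had limma adjusted p-values of 0.0811 and 0.318. None of the 5 TAM receptor and ligand genes was called by limma, and 1 of them, Gas6, had an adjusted p of at most 0.05, at 368 ± 25.7 RPM in reaggregates and 216 ± 79.1 RPM in flat cultures (SD; adjusted p = 0.019, log2 difference 0.85).

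Other genes described as YAP targets fall in 2 lists. A signature of 22 target genes, which holds Cyr61, Ctgf, Ankrd1, Amotl2, Lats2 and Axl, had 20 genes tested, of which 4 were called higher, 4 lower (Ankrd1 among them) and 12 neither, with a median log2 difference of 0.19 beside 0.04 over all genes. Igfbp3 and Foxf2 did not exceed the worth of 3 reads in any library. Gadd45a, a stress gene that slows the cell cycle, was at 173 to 416 RPM in reaggregates (median 285) and at 14.3, 19.3, 15 and 24.1 RPM in flat cultures 1 to 4. Every reaggregate was thus far above every flat culture. The log2 difference of 3.91 ± 0.28 (SE, limma adjusted p = 3.15e-05) was the largest of the signature without Ankrd1, for which no size is given. F3, the tissue factor that starts coagulation, was at 45.7 to 200 RPM (median 79.8) against 15.2, 16.1, 25 and 12 RPM, called higher by 2.41 ± 0.43 (SE; limma adjusted p = 0.00279), with reaggregates 3 and 4 above the rest. Nuak2, a kinase that promotes YAP activity, was at 1.92 to 4.56 RPM (median 2.83) against 8.52, 19.1, 8.62 and 18.9 RPM and fell by 1.94 ± 0.31 (SE; limma adjusted p = 0.00153).

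Among 14 further genes described as YAP targets, 13 were tested. Of these, 7 were called lower and 0 higher, beside 6.53% and 7.32% of all genes, and the median was -1.07. Ereg, a ligand of the EGF receptor, was at 3.71 to 15.1 RPM in reaggregates (median 5.96) and at 45.1, 69.4, 56.5 and 152 RPM in flat cultures 1 to 4. It was low in every reaggregate and fell by 3.28 ± 0.45 (SE) on the log2 scale, with a limma adjusted p of 0.000633. Edn1, the vasoactive peptide endothelin, was at or under 0.651 RPM in all reaggregates and at 1.96, 9.54, 2.51 and 11.1 RPM in flat cultures, with a limma adjusted p of 0.00123. Ccnd1, the cyclin of early cell cycle entry, was at 180 to 276 RPM (median 212) against 880, 1960, 1090 and 1810 RPM and fell by 2.64 ± 0.23 (SE; limma adjusted p = 6.62e-05). Genes are named here under a rule that asks for no overlap between the groups. In the whole list 8 of 13 had none, beside 19.1% of all genes. The list also holds Birc5, a mitosis gene, called lower as Ccnd1 was; neither is among the proliferation markers below.

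**Figure D3:**
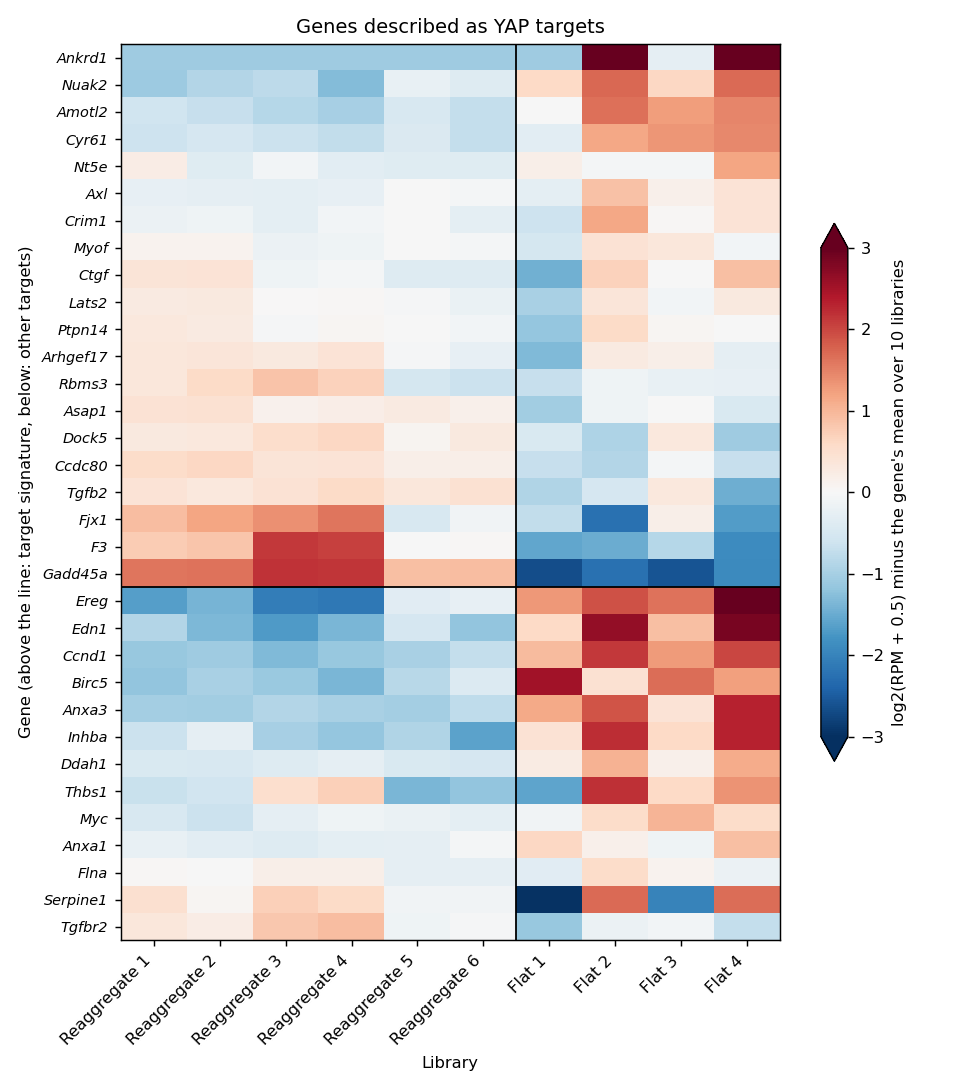
Genes described as YAP targets run down the side and libraries along the bottom; colour is log2(RPM + 0.5) minus the gene's mean over the 10 libraries, from blue (low) to red (high), with values beyond 3 in either direction drawn in the end colours. Above the horizontal line are the 20 tested genes of the signature and below it the 13 other targets, each sorted by the difference between groups; the vertical line parts 6 reaggregates from 4 flat cultures.

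Flat cultures differed among themselves more than reaggregates did for 8 of the 9 members, all but Wwtr1. Flat culture 1 was the lowest flat culture for 8 of the 9 members and the highest for the other, Wwtr1. The means of the de Bruijn lab cultures were above those of the other flat cultures for 7 members. Shares of all genes for these counts are not given, so the counts are not read as particular to the members. Between the sources of flat culture, 1 member (Ankrd1) met the rule for higher in the de Bruijn lab cultures in limma and 0 for lower. Of all genes, 1.82% were called higher and 3.87% lower. Ankrd1 passed the filter only through the de Bruijn lab cultures, against 0 reads and 3 reads in the others. Its call is therefore given no weight here either. Ctgf, at 375 ± 38.2 RPM in the de Bruijn lab cultures and 145 ± 94.4 RPM in the others (n = 2 each, SD), differed by 1.53 with a limma adjusted p of 0.155. In numbers of genes, 309 were higher and 656 lower, with a median of -0.17; after quantile normalization the split was 791 and 972, with a median of 0.05. Leaving out flat culture 1, 2, 3 or 4 left 0 genes called, in fits of 2 cultures against 1 that have little power.

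The comparisons of reaggregates with each source of flat culture share the same 6 reaggregates, and their values are given side by side. Against the de Bruijn lab cultures, 3 members met the rule for lower (Cyr61 at -1.91, Amotl2 at -2.29 and Ankrd1, with no size given). The rule for higher was met by 1 member (Wwtr1 at 1.01), where 10.5% of all genes were called lower and 15.2% higher. Ankrd1 passed the filter only through these flat cultures, so its call is given no weight. Against the cultures with no laboratory named, 1 member was called lower (Amotl2 at -1.35) and 0 higher, beside 6.17% and 3.7% of all genes. Amotl2 was thus called against either source (limma adjusted p = 3.52e-06 and 0.0153), and Wwtr1 had adjusted p-values of 0.000798 and 0.0131. Ctgf differed in sign, at -0.83 against the de Bruijn lab cultures (limma adjusted p = 0.0166) and 0.70 against the others (0.211). Yap1 was at -0.63 (0.0022) and 0.01 (0.968), Axl at -0.83 (0.00183) and -0.11 (0.629), and Lats2 at -0.27 (0.166) and 0.59 (0.107). Apart from Ankrd1, whose call is given no weight, the test of the difference between sources, given above, called none of these members.

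**Figure D4:**
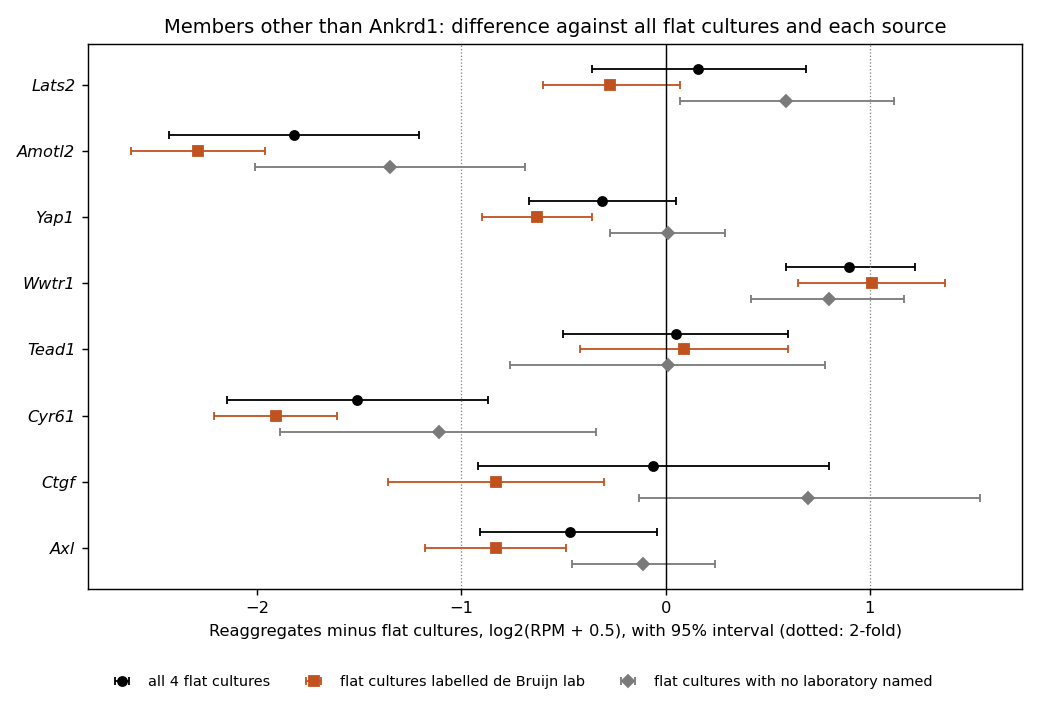
Difference in log2(RPM + 0.5), reaggregates minus flat cultures (horizontal axis), for 8 members, without Ankrd1, against all 4 flat cultures (black), the de Bruijn lab cultures (orange) and the cultures with no laboratory named (grey); bars are 95% intervals from limma and dotted lines mark 2-fold. The intervals of Amotl2, Cyr61 and Wwtr1 leave out 0 in all comparisons, and the estimates of Ctgf, Lats2 and Yap1 lie on both sides of it.

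Within the reaggregates, IL-3 made little difference to the members. With IL-3 and without it, Cyr61 was at 206 ± 18.6 and 218 ± 17.6 RPM, Amotl2 at 77.0 ± 8.91 and 86.1 ± 10.8 RPM, and Wwtr1 at 204 ± 33.5 and 196 ± 30.6 RPM (SD, n = 3 each). The log2 difference was between -0.16 (Amotl2) and 0.19 (Tead1) for every member. Limma called 0 members and 0 genes in all (0%), and 68 of the 16933 genes had an unadjusted p under 0.05 in limma. With consecutive reaggregates as a block, which the resemblance described next calls for, 0 genes were called and 564 had an unadjusted p under 0.05. Within these pairs Amotl2 was lower with IL-3 in all 3, and Ctgf, Wwtr1 and Tead1 were higher in all 3, each with a limma adjusted p of 0.982. The 95% interval of the difference was -0.36 to 0.20 for Cyr61 and -0.64 to 0.70 for Ctgf, so a 2-fold effect of IL-3 lies outside both.

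Reaggregates with consecutive numbers, of which the odd one lacked IL-3 and the even one had it, resembled each other. Ctgf differed by at most 0.07 on the log2 scale within these 3 pairs and by up to 0.80 between other reaggregates, and Axl by at most 0.04 and up to 0.28. Wwtr1 (0.08 and 0.54) showed the same, whereas Cyr61 varied as much within pairs as between them (0.27 and 0.30). Over all genes, Pearson's r between consecutive reaggregates was 0.994 to 0.995 and between others 0.961 to 0.98, across genes, which are not independent replicates. What the consecutive samples share is not stated, and p-values that count them as 6 samples may be too small: with each pair averaged, 1 member (Amotl2) was called, lower, where 2.53% of all genes were called lower and 1.84% higher.

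Several other gene groups also differed between these libraries, some in the pattern of certain members and some in other patterns. Their part in the results above was not tested. The summed level of 13 SRF and MRTF genes, the other system that reads the actin cytoskeleton, was 1572 to 3644 RPM in reaggregates and 1503, 5702, 2612 and 5292 RPM in flat cultures 1 to 4. It was high in the de Bruijn lab cultures, as were Ankrd1 and Ctgf. In that list 2 genes were called lower in reaggregates and 0 higher, with a median of -0.24. Between the sources of flat culture, 3 were called higher in the de Bruijn lab cultures (Acta2, Tagln and Myl9) and 0 lower. Of all genes, 1.82% were called higher and 3.87% lower there. Per kb of exon its most abundant gene was Vcl in the mean of reaggregates (134 ± 60.7 RPM per kb, SD, n = 6), near Acta2 (121 ± 82.1). In the mean of flat cultures it was Acta2 (604 ± 552, SD, n = 4).

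Immediate early and stress genes, which respond within minutes to handling and to growth factors, were mostly high in reaggregates. Of 15 genes 9 were called higher and 0 lower, with a median of 1.94. Atf3 was at 65.9 to 98.9 RPM (median 88.3) in reaggregates and at 3.8, 1.67, 31.5 and 1.46 RPM in flat cultures 1 to 4, Nr4a1 at 371 to 695 RPM (median 545) and at 10.9, 14.8, 166 and 40.8 RPM, and Egr3 at 19.1 to 33.1 RPM (median 25.3) and at 0.806, 1.31, 5.03 and 2.43 RPM. Flat culture 3 was the highest flat culture for all 3, and it exceeded every reaggregate for Fos (436 RPM) and Egr1 (1030 RPM), chosen for mention after their values were seen. Of the 15 genes only Atf3, Nr4a1 and Egr3 had no overlap between groups, and their log2 differences were 4.08, 3.98 and 3.36 (limma adjusted p = 0.00124, 0.0011 and 0.000138). The summed level of the list was 2792 to 3560 RPM in reaggregates and 594, 986, 3367 and 1084 RPM in flat cultures. Of its 13 genes with a known exon length, Nr4a1 was the most abundant per kb in the mean of reaggregates. Hspa1a and Hspa1b, counted among the 9, are near-identical genes that share reads.

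All 12 proliferation markers were called lower in reaggregates, with a median of -2.19. Aurka, Ccnb1 and Cdc2a (the gene of CDK1), all needed for mitosis, were at 9.70 ± 1.58, 13.0 ± 4.22 and 34.3 ± 9.52 RPM in reaggregates (n = 6, SD) and at 73.5 ± 37.2, 90.4 ± 42.7 and 186 ± 85.7 RPM in flat cultures (n = 4, SD). The groups did not overlap for 11 of the 12 markers, and for these 3 limma adjusted p was 9.19e-05, 0.000232 and 0.0003. In the mean of each group Pcna was the most abundant per kb of exon. Summed over the list, flat cultures 1 to 4 held 2184, 813, 1759 and 1013 RPM and reaggregates 292 to 439 RPM. Flat cultures 1 and 3 were the high ones here, and the low ones for Ctgf and Ankrd1.

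Most stromal markers were well above the floor in all libraries. Of 9 stromal markers 8 were tested; 5 were called higher in reaggregates, 1 lower (Kitl), and the median was 1.35. Col1a1, Col1a2 and Pdgfrb were at 6632 ± 669, 9630 ± 1612 and 738 ± 75.6 RPM in reaggregates (n = 6, SD) and at 2147 ± 1620, 3228 ± 2250 and 238 ± 109 RPM in flat cultures (n = 4, SD), with limma adjusted p of 0.00643, 0.00787 and 0.00103. The calls of both collagen genes were lost when reaggregates were averaged or split by IL-3, and that of Col1a2 also without the filter and against the flat cultures with no laboratory named (highest 0.095 and 0.101). Their summed level was 15100 to 22210 RPM in reaggregates and 7937, 8946, 13556 and 6429 RPM in flat cultures. Per kb of exon Col1a1 was the most abundant in the mean of reaggregates and Ly6a in that of flat cultures, and Thy1 did not exceed the worth of 3 reads. Ly6a, which encodes the surface protein SCA-1, set the sources of flat culture apart, with 2000 and 1260 RPM in flat cultures 1 and 3 and 13.4 and 15.3 RPM in flat cultures 2 and 4, and lay between 92.9 and 309 RPM in reaggregates; it was chosen for mention after its values were seen. The weight of this marker in the differences between sources was not tested.

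Adipocyte markers, relevant because OP9 cells can turn into fat cells, had 7 of 8 genes tested, with 3 called lower in reaggregates, 0 higher, and a median of -1.36. Pparg, the master regulator of fat cell formation, was at 36 to 46.7 RPM in reaggregates (median 43) and at 49.4, 395, 58.1 and 295 RPM in flat cultures 1 to 4, high in the same flat cultures as Ankrd1. It fell by 1.67 ± 0.52 (SE; limma adjusted p = 0.0329), a call lost in 12 of 23 alternatives. The summed level of the list was 255 to 691 RPM in reaggregates and 370, 1388, 528 and 1460 RPM in flat cultures. In the mean of reaggregates Lpl (46.6 ± 25.2 RPM per kb of exon, SD) and Fabp4 (46 ± 15.8) were the most abundant and about equal. Fabp4 was the most abundant per kb of exon in the mean of flat cultures, and Cfd was not above the worth of 3 reads. Blood cell markers summed to at most 3.65 RPM in any library over the 6 genes analysed, with 3 tested, 0 called and a median of -0.20. Hba-a1 was the most abundant per kb of exon in the mean of each group. Ptprc, Cd3e and Kit were not above 3 reads. Endothelial markers summed to at most 1.09 RPM over 5 genes, with 1 tested and 0 called. Pecam1 was the most abundant per kb of exon in the mean of each group. Cdh5, Kdr and Emcn were not above 3 reads. Epithelial markers summed to at most 0.958 RPM outside the de Bruijn lab cultures, where Krt19 brought the sum to 8.06 and 11.2 RPM while Epcam, Krt8, Krt18 and Cdh1 were not above 3 reads; Krt19, the only 1 tested, was called lower in reaggregates. Of 5 smooth and skeletal muscle markers 3 were tested, with 1 called higher, 1 lower and a median of -0.74, and their sum was 125 to 349 RPM in reaggregates and 103, 258, 228 and 259 RPM in flat cultures, led per kb of exon by Smtn in the mean of reaggregates and Actg2 in that of flat cultures; Myh11 and Ckm were not above 3 reads.

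The genes whose profile over the 10 libraries was most like that of each of 4 members were found by the root mean square difference between mean-centred log2(RPM + 0.5) values, among genes with a mean of at least 5 RPM. For Cyr61 they were Csf1 (0.17), Amotl2 (0.22) and Fosl1 (0.26). Csf1, the gene that carries the op mutation of the mice from which OP9 came, was at 204 ± 23.2 RPM in reaggregates (n = 6, SD) and at 252, 811, 613 and 798 RPM in flat cultures 1 to 4, and Fosl1, an AP-1 factor, at 32.6 ± 3.82 RPM and at 63.3, 147, 110 and 145 RPM. Both were low in all reaggregates and lowest among flat cultures in number 1, as Cyr61 was, which follows from their choice by nearest profile. Ctgf was most like Plin4 (0.20), Sash1 (0.24) and Slc27a3 (0.26), and Axl most like Pygo2 (0.09), Ltbp1 (0.10) and Cdipt (0.11). Ankrd1 was most like Cst6, Fabp4 and Galntl4 (0.42, 0.42 and 0.45), of which Fabp4, a fatty acid carrier of fat cells, was at 31.3, 435, 47.2 and 711 RPM in flat cultures 1 to 4. All 3 were high in the de Bruijn lab cultures, which likewise follows from their choice. The distances from Ankrd1 depend on the added 0.5, because Ankrd1 was at 0 RPM in all reaggregates and in flat culture 1.

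Promoter sequence was available from RefSeq (build GRCm38.p6, another build than that of the gene coordinates above) for 7 of the 9 members; Ctgf and Tead1 had no entry. The letters GGAATG, or CATTCC on the other strand, the core that TEAD factors recognise, were searched in the 250 bases before each gene start. They were found for 6 of the 7 members (Cyr61, Ankrd1, Amotl2, Yap1, Wwtr1 and Axl, not Lats2), beside 14.4% of 27025 genes and 12.6% of 32851 promoters of this length. In the signature of 22 genes, 6 of 15 with an entry held the letters. That count includes Cyr61, Ankrd1, Amotl2 and Axl, so it is not separate from that of the members. Among the 13 SRF and MRTF genes 4 of 12 held them. The AP-1 motif TGANTCA, which reads the same on both strands, was found for 0 of the 7 members, beside 7.82% of genes. A match is a description of the letters and not a binding site. It was present both in Cyr61 and Amotl2, which fell, and in Wwtr1, which was higher.

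The windows of Cyr61, Amotl2 and Wwtr1 are printed because these genes separate reaggregates from flat cultures, and that of Ankrd1 because it was seen above the floor only in the de Bruijn lab cultures. Each is the 250 bases before the start, 5′ to 3′ on the gene's strand, with GGAATG or CATTCC in capitals. The window of Cyr61 is chr3:145649986-145650235, minus strand, with its match beginning 103 bases before the start. That of Ankrd1 is chr19:36119845-36120094, minus strand, with matches 210 and 123 bases before the start. Those of Amotl2, chr9:102717554-102717803, plus strand, and of Wwtr1, chr3:57575911-57576160, minus strand, have matches 65 and 136 bases before the start; Wwtr1 has a second entry whose window also holds it.
Cyr61: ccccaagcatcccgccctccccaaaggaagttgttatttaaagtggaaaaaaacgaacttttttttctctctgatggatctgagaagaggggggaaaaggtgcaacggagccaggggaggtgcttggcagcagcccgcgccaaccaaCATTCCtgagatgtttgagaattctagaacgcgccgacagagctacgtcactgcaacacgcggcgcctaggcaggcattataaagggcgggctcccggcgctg
Ankrd1: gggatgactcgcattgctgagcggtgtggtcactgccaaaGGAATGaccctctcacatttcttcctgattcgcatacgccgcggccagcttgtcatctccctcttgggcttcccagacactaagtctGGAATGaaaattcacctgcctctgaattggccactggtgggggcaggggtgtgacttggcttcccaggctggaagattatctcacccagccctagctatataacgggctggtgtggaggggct
Amotl2: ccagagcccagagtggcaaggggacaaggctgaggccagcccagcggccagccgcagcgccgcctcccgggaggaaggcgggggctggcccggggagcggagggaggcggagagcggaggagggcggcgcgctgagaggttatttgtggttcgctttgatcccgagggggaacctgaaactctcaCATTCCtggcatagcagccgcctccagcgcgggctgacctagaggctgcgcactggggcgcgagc
Wwtr1: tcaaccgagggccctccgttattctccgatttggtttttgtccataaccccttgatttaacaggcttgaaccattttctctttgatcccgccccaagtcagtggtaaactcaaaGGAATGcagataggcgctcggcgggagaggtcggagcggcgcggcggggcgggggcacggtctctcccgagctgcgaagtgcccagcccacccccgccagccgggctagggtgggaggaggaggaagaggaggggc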

How the data were processed

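RNA from 6 reaggregates and 4 flat cultures was sequenced from TruSeq libraries. RPM values were deposited by the authors, who aligned reads with TopHat 1.2.0 to NCBIM37 (mm9) and also deposited fold changes and adjusted p-values from DESeq for reaggregates against flat cultures, which were not used. Log2(RPM + 0.5) was tested with limma 3.58.1 (R 4.3.3), using empirical Bayes with a mean-variance trend. Benjamini-Hochberg adjustment was made over 16933 of 26888 genes. The method was first run on simulated data without cell sources or pairs, which does not show how it performs on these libraries. No count model was fitted because many low values are not whole multiples of 1 read. Tables, exact permutation tests and figures were made with Python 3.11.15, pandas 2.3.3, numpy 2.4.6 and matplotlib 3.10.9.

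The members and lists were chosen with earlier results of these data known. Besides members and their paralogs, named genes are up to 3 of each list, those with the largest called change, no overlap between groups and a mean of at least 5 RPM in the higher group. Genes most like a member are the 3 with the nearest profiles. Other genes, named to say which ones a count or sum refers to, were chosen after their values were seen. Some genes on the lists are not reported here. Gene positions and exon lengths come from GENCODE M1 on NCBIM37, a later annotation than the one the authors counted on. Promoters come from RefSeq. Alternatives changed the pseudocount (0.1 or 1), filter, scaling, trend and samples.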

Additional observations from a re-analysis of the deposited data

Results flagged for a closer look

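Among 74 sets of replicate values examined, 2 held a library far from the rest of its group, where chance alone gives about 1 in 20 (3.7). Atf3 was at 31.5 RPM in flat culture 3, where the next flat culture was at 3.8 RPM. Mertk was at 19.3 RPM in flat culture 3, with the next flat culture at 10.4 RPM. Ankrd1 was read above the floor in the de Bruijn lab cultures and at 0 and 3 reads in the other flat cultures. Its fitted log2 difference in limma, 4.52 with 0.5 added, was 3.74 with 1 added and 6.10 with 0.1 added, so its size is set by the added value and is no estimate of the difference.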

How the results depend on the processing

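Of the values given under alternatives, 1125 stayed the same (counts within 1.5 times, single genes by direction and side of an adjusted p of 0.05, whatever their fold), 65 lost that p, 12 passed it only then, 32 changed sign and 34 counts or values moved. The count called higher in reaggregates (1239) was 345 with only reaggregates without IL-3, 277 with only those with IL-3 and 312 with consecutive reaggregates averaged, 2579 against the de Bruijn lab cultures, 627 against the others, and 766 to 2121 leaving out 1 library. The count called lower (1106) was 474, 360 and 429 for the same subsets and 1775 against the de Bruijn lab cultures. Fewer samples enter each of these fits. Members called lower were 1 in each of the IL-3 subsets, with averaging and against flat cultures with no laboratory named, and members called higher were 1 against the de Bruijn lab cultures.

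With the replicate number as a replicate block, 1885 genes were called higher. Same-numbered libraries did not deviate together (r of -0.04, -0.21, 0.07 and 0.15, across genes, which are not independent replicates), and no reaggregate but number 4 correlated best with its own number, so the numbers are not taken to pair the samples.

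Some differences changed sign, and the cause was not tested. For culture form, Ctgf was 0.02 after quantile normalization, 0.12 with the block, 0.70 against flat cultures with no laboratory named, and -0.56 to 0.23 leaving out 1 library. Lats2 was -0.27 against the de Bruijn lab cultures and -0.13 to 0.32 leaving out 1 library; Yap1 was 0.01 and Nov -1.21 (1.41 against all flat cultures) against the cultures with no laboratory named. Tead1 was -0.02 after quantile normalization, -0.04 without the IL-3 reaggregates and -0.15 to 0.28 leaving out 1 library. For IL-3, leaving out 1 reaggregate gave -0.18 to 0.25 for Ctgf, -0.16 to 0.09 for Lats2, -0.01 to 0.13 for Yap1, -0.06 to 0.18 for Wwtr1 and -0.08 to 0.08 for Axl.

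Between sources of flat culture, 309 genes higher became 70 without the filter and 791 after quantile normalization, and 656 lower became 134 without the filter and 1015 with a mean of at least 1 RPM; the cause was not tested. Ankrd1 was not called without the filter (0 members higher). Leaving out 1 flat culture gave 0 to 0 genes and members called, with the lone sample assumed to vary like the others, and -0.02 to 1.62 for Cyr61 and -0.72 to 0.57 for Tead1. Tead1 was 0.14 after quantile normalization and 0.08 after median-ratio scaling. Depth limits what can be said of genes near 3 reads.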
